A study of Homo sapiens with 34 samples.

Results

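ZEB2 shRNA cells were compared with WT cells at day 2 of differentiation toward cardiomyocytes, which is 4 of the 34 libraries of RNA sequencing reads in the series (2 ZEB2 shRNA and 2 WT). The members were the libraries whose labels give day 2 and either ZEB2 shRNA knockdown or wild-type. All cells were H1, an established human embryonic stem cell (ESC) line. ZEB2 shRNA cells carried 1 lentiviral shRNA against ZEB2, the vector that gave the strongest knockdown among those the study tried. WT cells carried a control vector, either empty or with an shRNA to GFP, and the labels do not say which. Both had been grown in Essential 8 medium. They were then moved to a basal medium without FGF2, TGFβ and insulin, with the GSK3β inhibitor CHIR99021 for the first day and the WNT inhibitor IWP2 from day 2. With 1 shRNA line for the gene, an effect of ZEB2 and any other difference between this line and the WT line cannot be told apart. In bulk RNA, fewer cells that express a gene and less RNA of that gene per cell cannot be told apart either. Day 0 and day 6 libraries of the same lines, and day 2 libraries of lines with an shRNA against NKX2-5 or ZNF503, were used to see where the day 2 differences also stood.

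Mesendoderm is the transient population from which mesoderm, including the heart, and definitive endoderm arise. In ESC cultures it is induced by WNT signalling, together with NODAL and BMP ligands, and is marked by TBXT, EOMES, MIXL1 and GSC while pluripotency factors are still present. ZEB2 is a zinc finger and homeodomain transcription factor that binds paired CACCT sequences, interacts with SMAD proteins and represses epithelial genes such as CDH1 during epithelial-mesenchymal transition (EMT), and it is known for roles in neural crest and neural development.

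Day 2 libraries of the 4 lines held 14630405 to 87850810 counts over 23189 gene symbols, with 28272228 and 14630405 counts in the WT libraries and 34832478 and 38363691 in the ZEB2 shRNA libraries. Levels are given in CPM, the count scaled by the TMM-adjusted size of the library. Markers of the labelled stage were present in both lines: 6 mesendoderm markers (TBXT, MIXL1, EOMES, GSC, CER1 and LHX1) summed to 3137 and 3293 CPM in WT and 3197 and 3307 CPM in ZEB2 shRNA libraries, and 6 undifferentiated ESC markers to between 3004 and 3226 CPM. CER1 and EOMES made up most of the mesendoderm sum, so it says little of the other markers. Marker sums of other cell types were lower, at 2.93 to 4.21 CPM for 8 cardiomyocyte genes, 0.463 to 2.26 CPM for 6 hepatocyte genes, 0.787 to 1.11 CPM for 7 blood genes, 24.5 to 27.9 CPM for 8 neural genes, 221 to 242 CPM for 6 definitive endoderm genes and 6.40 to 9.48 CPM for 7 trophoblast and amnion genes, for which both ZEB2 shRNA libraries lay above both WT libraries. No member of these 8 marker lists passed the 5% FDR.

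The targeted gene did not pass the test at day 2. ZEB2 (chromosome 2, 145121931 to 145278624, minus strand, GRCh37) stood at 19.3 and 19 CPM in WT and 11.6 and 13.1 CPM in ZEB2 shRNA libraries, so that both libraries with the shRNA lay below both WT libraries and 64.4% ± 5.63 (SD, n = 2) of the WT level was left (log2 fold change -0.63 ± 0.17 SE, adjusted p = 0.185, edgeR's quasi-likelihood test). It passed only when genes with low counts were not filtered out (log2 fold change -0.62, adjusted p = 0.0341). With all RefSeq entries of a gene summed, ZEB2 stood at a log2 fold change of -0.45 (adjusted p = 0.3755, same test). At day 0 its mean was 0.114 CPM in WT and 0.132 CPM in ZEB2 shRNA cells. At day 6 it was 93.9 and 55.1 CPM (log2 fold change -0.77 ± 0.12 SE, adjusted p = 0.00136), and at day 10 113 and 55.6 CPM (replicates 3 and 4, not tested). The study measured knockdown with another assay, real-time PCR, and reported a larger reduction of each targeted mRNA than these values show. The line with the shRNA against ZEB2 was not the line with the least ZEB2 RNA at day 2. ZEB2 stood at 4.98 and 4.32 CPM in the NKX2-5 shRNA libraries (log2 fold change -2.03 ± 0.19 SE, adjusted p = 9.39e-06 against WT) and at 10.5 and 14.4 CPM in the ZNF503 shRNA libraries (log2 fold change -0.64 ± 0.18 SE, adjusted p = 0.0147), both against the same WT libraries. Against the mean of those 2 lines, with no WT library in the contrast, ZEB2 was higher in ZEB2 shRNA cells (log2 fold change 0.70 ± 0.15 SE, adjusted p = 0.00437). Every day 2 direction below is therefore between the line labelled ZEB2 shRNA and the line labelled WT.

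Few genes differed. Of 16521 genes tested, 22 (0.133%) were called at 4-fold and 10% FDR, the threshold the study set for day 2, of which 2 were higher (0.0121%) and 20 lower (0.121%) in ZEB2 shRNA cells. Without a fold threshold, 81 genes (0.490%) passed 5% FDR, 34 higher (0.206%) and 47 lower (0.284%). The balance of that count turned with other tests, at 110 higher and 95 lower with edgeR's exact test, 98 and 83 with DESeq2, 95 and 91 with a replicate block and 181 and 120 without a filter on low counts. ZIM2, CCDC68 and TBX5-AS1 were called but lay above 5% FDR, so 62 genes passed 5% FDR without being called. Without WT replicate 1 or 2, 13 and 14 genes were called, and without 1 library the count at 5% FDR was 28 (WT replicate 1), 27 (WT replicate 2), 42 (ZEB2 shRNA replicate 1) or 42 (ZEB2 shRNA replicate 2). The median log2 fold change over all genes tested was -0.0013. For comparison of scale, NKX2-5 and ZNF503 shRNA cells had 197 and 463 called genes against the same WT libraries (1.19% and 2.80%), and WT cells had 1358 between day 0 and day 2 (8.33%).

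**Figure D1:**
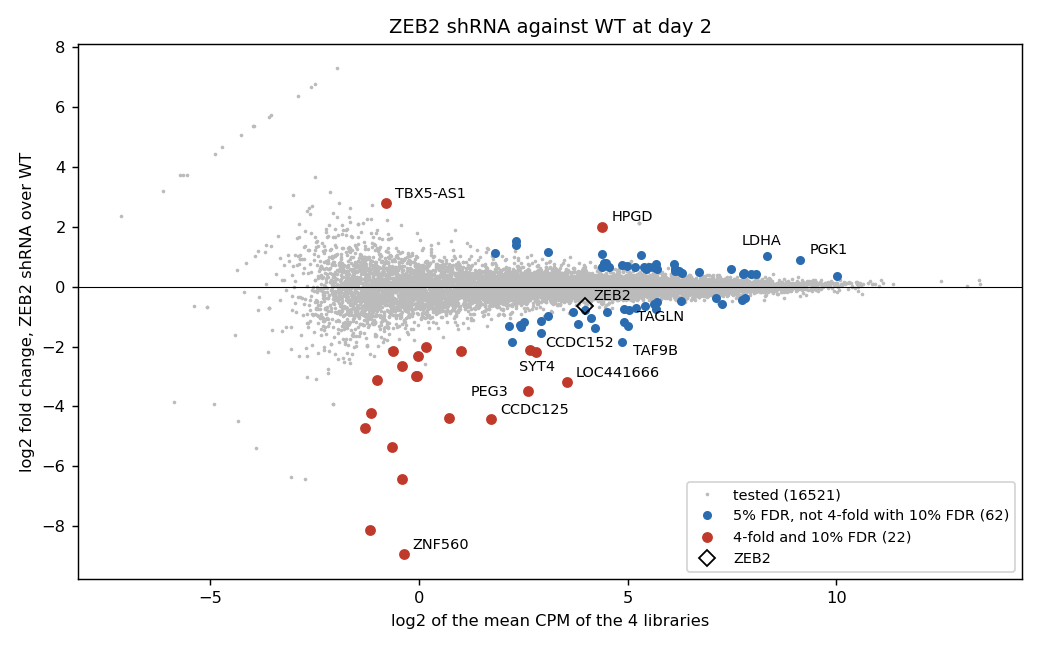
Each point is 1 of the 16521 genes tested, by the log2 of its mean CPM over the 4 libraries (horizontal) and its log2 fold change in ZEB2 shRNA over WT cells at day 2 (vertical), and genes with no count in these 4 libraries are not drawn. The 22 called genes (red) lie mostly at the low end of expression and below 0, the 62 other genes at 5% FDR (blue) lie on both sides of 0, and ZEB2 is the open diamond at -0.63.

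Several genes had no or almost no reads in ZEB2 shRNA cells. ZNF560, a KRAB-type zinc finger gene (chromosome 19, 9577031 to 9609292), stood at 1.92 and 1.19 CPM in WT libraries and had 0 counts in both ZEB2 shRNA libraries, at least 19.3-fold lower when 3 counts per library are taken as the limit (adjusted p = 0.000232, as all adjusted p-values here from edgeR's quasi-likelihood test). SCG2, which encodes secretogranin II of dense-core secretory granules (chromosome 2, 224461658 to 224467079), stood at 0.993 and 0.794 CPM in WT and also had 0 counts in both ZEB2 shRNA libraries, at least 11.1-fold lower (adjusted p = 0.0116). Both genes had reads in each WT library. IAH1, an esterase homolog (chromosome 2, 9613787 to 9636672), had 1 count in the 2 ZEB2 shRNA libraries together against 0.958 and 2.05 CPM in WT, a ratio of 99.3 with a 95% counting interval of 17.1 to 3989. The long noncoding RNA LOC100128885 had 2 counts in ZEB2 shRNA cells against 0.993 and 1.52 CPM in WT (ratio 43.8, 11.5 to 371). MIR4458HG, a microRNA host transcript (chromosome 5, 8450814 to 8487043), had 2 counts against 0.787 and 0.794 CPM (ratio 29.5, 7.57 to 253). These exact binomial intervals and the limit cover counting error only. IAH1 overlaps ADAM17, a metalloproteinase gene on the opposite strand, which stood at a log2 fold change of 0.22 (adjusted p = 0.530), and whether strand was used in counting is not stated in the sources used here.

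The neighbouring imprinted genes PEG3 and ZIM2 were both called lower. PEG3, a paternally expressed zinc finger gene (chromosome 19, 57321445 to 57352096), stood at 11.0 and 11.5 CPM in WT and 1.06 and 0.960 CPM in ZEB2 shRNA libraries (log2 fold change -3.47 ± 0.37 SE, adjusted p = 0.000232). ZIM2 (chromosome 19, 57285915 to 57352099) shares its first exons and strand with PEG3 and had 3 counts in ZEB2 shRNA cells against 0.582 and 1.13 CPM in WT (ratio 19.1, 6.00 to 97.1, adjusted p = 0.0723), so reads of the 2 genes may be split between them by the counting. Of the 25 listed imprinted genes tested, PEG3 was the 1 that passed 5% FDR, and 13 had positive and 12 negative log2 fold changes (median 0.05). The list is a selection, and genes outside it, such as DIO3 (below), were not counted. The paternally expressed SNRPN and the maternally expressed H19 lay at 0.05 (adjusted p = 0.904) and -1.40 (adjusted p = 0.492).

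The other zinc finger genes and gene relatives among the called genes were LOC441666, a transcribed pseudogene, at 21.8 and 20.1 CPM in WT and 2.08 and 2.48 CPM in ZEB2 shRNA libraries (log2 fold change -3.20 ± 0.20 SE, adjusted p = 2.05e-06), ZNF572 at 1.92 and 1.46 CPM in WT and 0.286 and 0.152 CPM in ZEB2 shRNA libraries (log2 fold change -2.98 ± 0.50 SE, adjusted p = 0.0151) and ZNF662 at 2.19 and 1.39 CPM in WT and 0.457 and 0.455 CPM in ZEB2 shRNA libraries (log2 fold change -2.02 ± 0.31 SE, adjusted p = 0.00935). LOC441666 had the most counts of the 3. The ZNF genes of chromosome 19 did not lean down: of 232 tested, ZNF560 was lower and ZNF506 higher at 5% FDR, 131 had positive values, and the median log2 fold change was 0.03. ZNF genes elsewhere were not tallied, among them ZNF572, ZNF662 and ZNF300 (lower at 5% FDR) and ZNF717 (higher). ZNF506 missed 5% FDR without WT replicate 1, WT replicate 2 or ZEB2 shRNA replicate 1 (adjusted p up to 0.240).

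Genes of other functions fell as well. CCDC125, a coiled-coil protein gene (chromosome 5, 68576002 to 68628636), stood at 7.12 and 5.56 CPM in WT and 0.228 and 0.354 CPM in ZEB2 shRNA libraries (log2 fold change -4.43 ± 0.31 SE, adjusted p = 3.24e-06), and TRIM61, of the tripartite motif family, at 3.08 and 3.24 CPM in WT and 0.143 and 0.152 CPM in ZEB2 shRNA libraries (log2 fold change -4.39 ± 0.43 SE, adjusted p = 0.000115). CCDC152 (chromosome 5, 42756920 to 42802541) fell from 12.1 and 10.9 to 2.48 and 2.53 CPM (log2 fold change -2.198 ± 0.19 SE, adjusted p = 3.25e-05) while SELENOP, the selenium carrier gene it overlaps on the opposite strand, stood at a log2 fold change of 0.34 (adjusted p = 0.141). SYT4, a synaptotagmin of secretory vesicles, was at 10.2 and 10.2 CPM in WT and 2.54 and 2.198 CPM in ZEB2 shRNA libraries (log2 fold change -2.11 ± 0.22 SE, adjusted p = 0.000230). In each of these 4 genes both ZEB2 shRNA libraries lay below both WT libraries, as in 19.5% of all genes. This follows largely from their choice, since they were called by this difference.

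The remaining called genes were at a few CPM or less in WT. TEK, the angiopoietin receptor of endothelial cells, stood at 1.47 and 1.99 CPM in WT and 0.143 and 0.278 CPM in ZEB2 shRNA libraries (log2 fold change -2.97 ± 0.47 SE, adjusted p = 0.0106). It carried the endothelial marker sum, which was 1.81 and 2.38 CPM in WT and 0.257 and 0.505 CPM in ZEB2 shRNA libraries over 6 genes, of which TEK alone was high enough to be tested. PECAM1 and CDH5, defining genes of endothelium, were at 0 or near it in all 4 libraries, with at most 0.0685 CPM for PECAM1 and 0.0505 CPM for CDH5. DDX43, a DEAD-box RNA helicase gene that overlaps CGAS and OOEP on the opposite strand, stood at 0.616 and 1.19 CPM in WT and 0.143 and 0.0505 CPM in ZEB2 shRNA libraries, and ASPG, an asparaginase, at 1.16 and 1.46 CPM in WT and 0.200 and 0.202 CPM in ZEB2 shRNA libraries (log2 fold changes -3.12 and -2.66, adjusted p = 0.0244 and 0.0369). Like DDX43, OOEP had both ZEB2 shRNA libraries below both WT libraries, with 0.205 and 0.397 CPM in WT and 0 counts in ZEB2 shRNA libraries, but it did not pass the test (adjusted p = 0.134), and reads of the overlapping genes cannot be assigned with certainty. MX2, an interferon-induced GTPase, stood at 1.78 and 1.52 CPM in WT and 0.314 and 0.354 CPM in ZEB2 shRNA libraries (log2 fold change -2.30 ± 0.47 SE, adjusted p = 0.0463), and it was the 1 gene of 23 interferon-stimulated genes tested that passed 5% FDR (12 of 23 negative, median -0.05). The noncoding LINC00664, which overlaps the zinc finger gene ZNF429 on the same strand, stood at 4.31 and 2.25 CPM in WT and 0.857 and 0.657 CPM in ZEB2 shRNA libraries, and the coiled-coil gene CCDC68 at 1.13 and 0.993 CPM and 0.257 and 0.227 CPM (log2 fold changes -2.16 and -2.13, adjusted p = 0.0266 and 0.0951).

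Of the 2 called genes that rose, HPGD was the one with appreciable expression. HPGD, the dehydrogenase that inactivates prostaglandins (chromosome 4, 175411326 to 175444305, minus strand), stood at 9.58 and 6.89 CPM in WT and 35.6 and 31.9 CPM in ZEB2 shRNA libraries (log2 fold change 2.003 ± 0.16 SE, adjusted p = 1.82e-05), well apart in every library. TBX5-AS1 (chromosome 12, 114845936 to 114850637), a long noncoding RNA that overlaps the cardiac transcription factor gene TBX5 on the opposite strand, stood at 0.0685 and 0.265 CPM in WT and 1.23 and 0.758 CPM in ZEB2 shRNA libraries (log2 fold change 2.80 ± 0.62 SE, adjusted p = 0.0724). TBX5 itself stood at 0.205 and 0.397 CPM in WT and 1.34 and 1.01 CPM in ZEB2 shRNA libraries (log2 fold change 2.07 ± 0.54 SE, adjusted p = 0.153), so it did not pass the test, and reads of the 2 overlapping genes cannot be assigned with certainty.

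**Figure D2:**
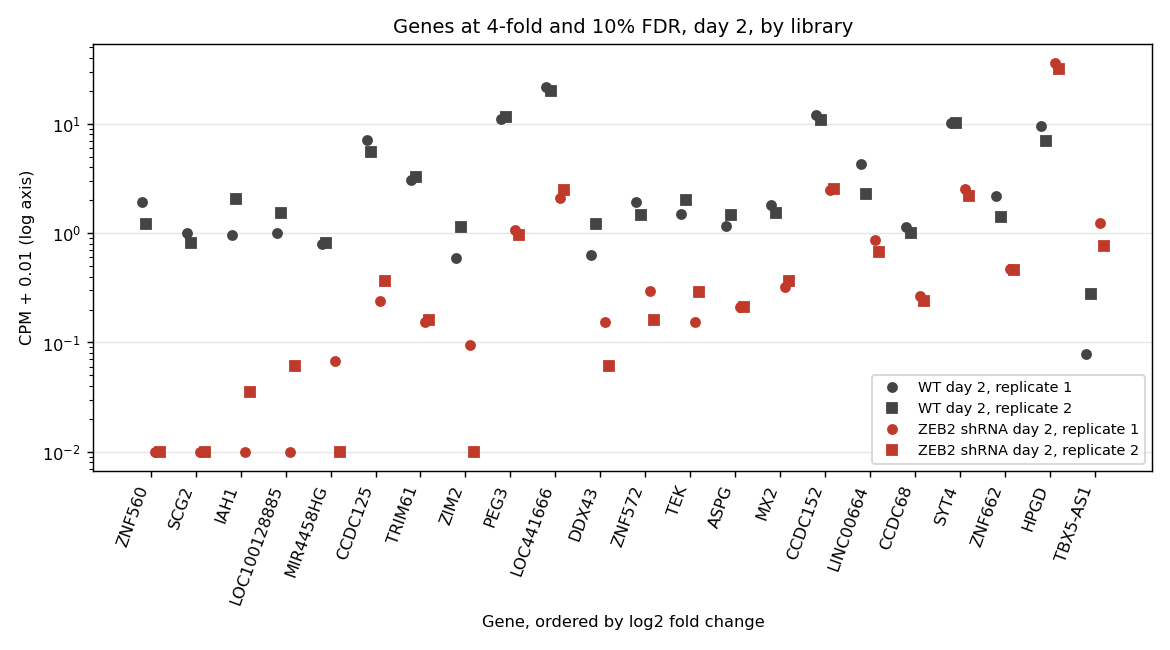
CPM plus 0.01 of each of the 22 called genes in each WT (grey) and ZEB2 shRNA (red) library at day 2, on a log axis, with circles for replicate 1, squares for replicate 2 and genes ordered by log2 fold change. Points at the bottom edge (0.01) are libraries with 0 counts, as for ZNF560 and SCG2. The 2 lines overlap in no gene, which follows largely from choosing these genes by their difference in the same libraries.

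Of the 22 calls, 10 stood when each of the 4 libraries was left out in turn: those of CCDC125, CCDC152, IAH1, LOC100128885, LOC441666, PEG3, SYT4, TEK, TRIM61 and ZNF560. Another 3 were lost whichever library was left out, ASPG, CCDC68 and MX2, with adjusted p of 0.158 to 0.254, 0.285 to 0.413 and 0.165 to 0.329. Without WT replicate 1, SCG2 (adjusted p = 0.110), ZNF572 (log2 fold change -2.74, adjusted p = 0.166), ZNF662 (-1.60, adjusted p = 0.218), LINC00664 (-1.57, adjusted p = 0.361), MIR4458HG (-4.73, adjusted p = 0.198), ZIM2 (-4.69, adjusted p = 0.179) and TBX5-AS1 (1.89, adjusted p = 0.487) were no longer called. Without WT replicate 2, DDX43 (-2.67, adjusted p = 0.228), MIR4458HG (-4.72, adjusted p = 0.156), ZIM2 (-3.75, adjusted p = 0.562) and TBX5-AS1 (3.79, adjusted p = 0.156) were not. HPGD fell just under 4-fold without WT replicate 2 (1.82, adjusted p = 0.000291) and without ZEB2 shRNA replicate 1 (1.92, adjusted p = 1.86e-05), and TBX5-AS1 was lost without ZEB2 shRNA replicate 1 (2.42, adjusted p = 0.317). Without ZEB2 shRNA replicate 2, DDX43 (-2.53, adjusted p = 0.138), LINC00664 (-1.98, adjusted p = 0.138), MIR4458HG (-3.71, adjusted p = 0.158) and ZIM2 (-3.20, adjusted p = 0.273) were lost. No called gene changed its direction without any 1 of the 4 libraries.

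ZEB2 binds E-box-like CACCT sequences, so the promoters of the called genes furthest from 0 on each side were read for CACCTG and its reverse complement CAGGTG, from 250 bases before to 50 bases after the start. RefSeq promoters (GRCh38.p14) were at hand for 15 of the 22 called genes, HPGD, TBX5-AS1 and ZNF560 among the 4 furthest. The 250 bases before the start are shown 5′ to 3′ on the strand of the gene, with a match in capitals.
HPGD (chr4:174522489-174522738, minus strand): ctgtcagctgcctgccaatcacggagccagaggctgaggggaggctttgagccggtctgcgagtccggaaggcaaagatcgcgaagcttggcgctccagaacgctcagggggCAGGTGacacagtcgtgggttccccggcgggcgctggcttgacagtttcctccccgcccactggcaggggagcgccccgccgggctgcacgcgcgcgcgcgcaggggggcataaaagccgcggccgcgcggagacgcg
TBX5-AS1 (chr12:114407945-114408194, plus strand): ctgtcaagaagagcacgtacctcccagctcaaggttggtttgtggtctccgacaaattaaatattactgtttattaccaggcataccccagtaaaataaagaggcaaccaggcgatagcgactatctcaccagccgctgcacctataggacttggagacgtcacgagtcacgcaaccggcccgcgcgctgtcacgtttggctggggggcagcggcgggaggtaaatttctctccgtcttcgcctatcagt
ZNF560 (chr19:9498617-9498866, minus strand): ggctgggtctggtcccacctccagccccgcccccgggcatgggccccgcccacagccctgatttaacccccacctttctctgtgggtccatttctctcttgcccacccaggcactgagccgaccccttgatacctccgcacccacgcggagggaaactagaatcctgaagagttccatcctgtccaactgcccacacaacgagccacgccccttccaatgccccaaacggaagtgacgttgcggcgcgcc
HPGD, which rose, held 1 match, 138 bases before its start, and ZNF560 and TBX5-AS1 held no CACCTG or CAGGTG. The shorter CACCT does occur in the sequences shown for ZNF560 and TBX5-AS1, and it was not counted. Of the 15 promoters of called genes, 6 held a match (40.0%), those of HPGD, MIR4458HG, CCDC125, DDX43, LOC100128885 and SYT4, and of the 62 promoters at hand for genes called or at 5% FDR, 16 did (25.8%). Among all 27305 RefSeq promoters of this length, 20.6% held one, and among the 12562 of genes tested at day 2, 18.7%. A match is a string of letters and not a measured binding site.

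The same lines at days 0 and 6 were then read for the 22 genes, in libraries the day 2 comparison did not use. At day 0, before differentiation, 14 of 22 differed in the same direction at 5% FDR and 1 in the opposite direction, where 3.93% of all genes passed (1.46% lower and 2.47% higher). The count of 14 was 7 without WT replicate 1 of day 0, 8 without WT replicate 2, 9 without ZEB2 shRNA replicate 1 and 8 without ZEB2 shRNA replicate 2. CCDC125 stood at 4.66 CPM in WT and 0.137 CPM in the knockdown line on day 0 (log2 fold change -5.08 ± 0.30 SE, adjusted p = 2.67e-06), LOC441666 at 11.3 and 1.08 CPM (log2 fold change -3.40 ± 0.18 SE, adjusted p = 1.67e-06), and PEG3 at 4.77 and 0.343 CPM (log2 fold change -3.84 ± 0.56 SE, adjusted p = 0.00314). The other genes already lower at day 0 were CCDC152, DDX43, IAH1, LINC00664, LOC100128885, MIR4458HG, TRIM61, ZNF560, ZNF572 and ZNF662, and TBX5-AS1 was already higher (log2 fold change 1.83 ± 0.38 SE, adjusted p = 0.0210). At day 6, 11 of the 20 genes tested differed in the same direction at 5% FDR and none in the opposite one, against 11.0% of all genes (5.33% lower and 5.67% higher). CCDC125 was then at 10.1 CPM in WT and 0.840 CPM in ZEB2 shRNA cells, and CCDC152 at 9.75 and 0.815 CPM. IAH1, at 9.28 CPM in WT, had 0 counts in both ZEB2 shRNA libraries at day 6. PEG3 was lower at days 0, 2 and 6, and at day 10 it stood at 8.60 CPM in WT and 18.8 CPM in ZEB2 shRNA cells (n = 2, not tested).

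**Figure D3:**
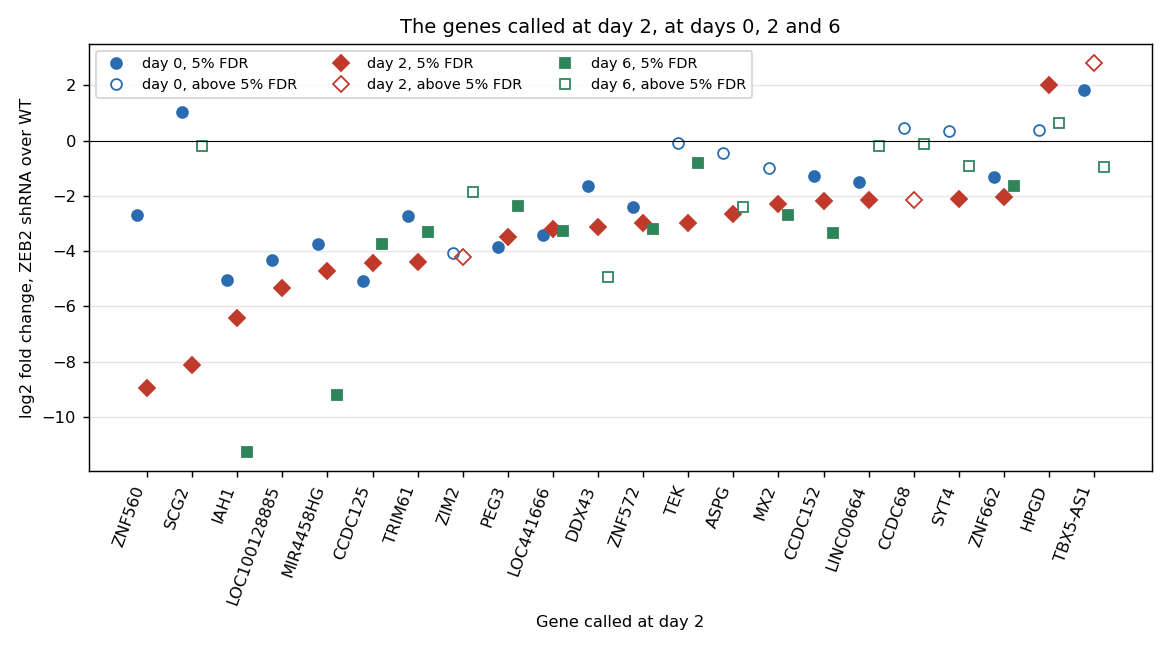
Log2 fold change of ZEB2 shRNA over WT cells at day 0 (circles), day 2 (diamonds) and day 6 (squares) for the 22 genes called at day 2, with filled symbols at 5% FDR, open symbols above it, and no symbol where the gene was not tested (ZNF560 and LOC100128885 at day 6). Of the 22 genes, 14 differed in the same direction at 5% FDR at day 0, while SCG2, CCDC68 and SYT4 lie above 0 at day 0 and below 0 at day 2.

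Of the 22 called genes, 6 also differed in how they changed between days 0 and 2. In the interaction term, which uses the same day 2 libraries, 87 of 17345 genes (0.502%) were past 4-fold and 10% FDR, and 1.83% passed 5% FDR (0.888% higher and 0.946% lower). The first count was 57 without ZEB2 shRNA replicate 1 of day 2 and 54 without WT replicate 2 of day 2. The 6 called genes past 5% FDR were SCG2, ZNF560, TEK, CCDC68, SYT4 and HPGD. SCG2 went from 2.47 CPM at day 0 to 0.894 CPM at day 2 in WT cells, and from 5.09 CPM to 0 in ZEB2 shRNA cells, where it had been higher than in WT at day 0 (log2 fold change 1.04 ± 0.25 SE, adjusted p = 0.0375). SYT4 rose in WT from 4.89 to 10.2 CPM (log2 fold change 1.00, adjusted p = 0.000176), while in ZEB2 shRNA cells its mean was 6.24 CPM at day 0 and 2.37 CPM at day 2 (interaction -2.45 ± 0.26 SE, adjusted p = 0.000129). TEK stood at 4.59 and 4.29 CPM at day 0 in the 2 lines (interaction -2.85 ± 0.46 SE, adjusted p = 0.00288). HPGD declined in WT from 16.1 to 8.23 CPM and was at 21.3 and 33.8 CPM in ZEB2 shRNA cells (interaction 1.62 ± 0.37 SE, adjusted p = 0.0352).

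A contrast with the mean of the NKX2-5 and ZNF503 shRNA lines, which shares the ZEB2 shRNA libraries but no WT library, called 131 genes (0.793%), or 209 without ZEB2 shRNA replicate 1. At 5% FDR it held 10 of the 22 genes in the same direction and 2 in the opposite one, where 21.5% of all genes passed (10.1% lower and 11.3% higher). CCDC125 stood at 7.29 CPM in NKX2-5 and 5.26 CPM in ZNF503 shRNA cells, near its WT level (log2 fold change -4.38 ± 0.29 SE, adjusted p = 1.51e-07), and CCDC152 at 24.4 and 8.51 CPM (log2 fold change -2.53 ± 0.18 SE, adjusted p = 2.63e-07). LOC100128885, SCG2, TRIM61, DDX43, ZNF572, TEK, ZNF662 and LOC441666 were lower against those lines as well. PEG3 and HPGD went the other way: PEG3 stood at 0.109 and 1.11 CPM in NKX2-5 and ZNF503 shRNA cells, below the ZEB2 shRNA level (log2 fold change 1.23 ± 0.41 SE, adjusted p = 0.0432), and HPGD at 13.9 and 193 CPM (log2 fold change -0.62 ± 0.13 SE, adjusted p = 0.00297). Against the same WT libraries, PEG3 was lower in NKX2-5 shRNA cells (log2 fold change -6.20 ± 0.48 SE, adjusted p = 1.98e-06) and in ZNF503 shRNA cells (log2 fold change -3.22 ± 0.36 SE, adjusted p = 1.33e-05) as well.

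The 62 genes at 5% FDR that were not called were followed in the same way. At day 0, 16 of them differed in the same and 4 in the opposite direction at 5% FDR, at day 6 18 of 60 tested in the same and 8 in the opposite direction, and in the interaction of days 0 and 2 18 in the same and 2 in the opposite direction, where 3.93%, 11.0% and 1.83% of all genes passed. Against the other shRNA lines, which shares the ZEB2 shRNA libraries, it was 38 in the same and 6 in the opposite direction, where 21.5% of all genes passed. When each of the 4 day 2 libraries was left out in turn, 9 of the 62 passed every time and 25 never did. Among those with libraries that did not overlap and a mean of at least 1 CPM, the 10 largest rises at log2 fold changes of 0.79 to 1.52 were TBX15, TGFBI, RBM46, RETREG1, PLD1, DIO3, LDHA, PGK1, EBF2 and GPC3. TBX15, a T-box factor of mesoderm, stood at 2.94 and 2.12 CPM in WT and 7.65 and 7.23 CPM in ZEB2 shRNA libraries (log2 fold change 1.52 ± 0.23 SE, adjusted p = 0.00800). TGFBI, an extracellular matrix protein induced by TGFβ, stood at 2.77 and 2.78 CPM in WT and 6.80 and 7.65 CPM in ZEB2 shRNA libraries (log2 fold change 1.38 ± 0.26 SE, adjusted p = 0.0266). DIO3, the deiodinase that inactivates thyroid hormone, stood at 26.6 and 26.1 CPM in WT and 47.4 and 61.2 CPM in ZEB2 shRNA libraries (log2 fold change 1.04 ± 0.15 SE, adjusted p = 0.00551), and it was already higher at day 0 (log2 fold change 2.03 ± 0.31 SE, adjusted p = 0.00359). RBM46, an RNA-binding protein gene of the germline, was at 4.83 and 5.69 CPM in WT and 12.1 and 11.3 CPM in ZEB2 shRNA libraries (log2 fold change 1.18 ± 0.16 SE, adjusted p = 0.00303). PLD1, a phospholipase, was at 15.0 and 11.7 CPM in WT and 30.7 and 26.3 CPM in ZEB2 shRNA libraries, the transcription factor gene EBF2 at 15.6 and 15.8 CPM in WT and 26.7 and 28.1 CPM in ZEB2 shRNA libraries and the glypican gene GPC3 at 14.6 and 18.6 CPM in WT and 29.95 and 26.9 CPM in ZEB2 shRNA libraries. RETREG1, an endoplasmic reticulum turnover receptor, was the lowest expressed at 2.33 and 2.12 CPM in WT and 5.37 and 4.37 CPM in ZEB2 shRNA libraries (log2 fold change 1.12 ± 0.23 SE, adjusted p = 0.0463).

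Without 1 library these rises held to different degrees. LDHA and PGK1 passed 5% FDR without any of the 4 libraries. RBM46 missed it without WT replicate 1 (1.05, adjusted p = 0.0829), TBX15 without WT replicate 2 (1.34, adjusted p = 0.109), DIO3 without either WT library (adjusted p = 0.0624 and 0.0646), GPC3 without WT replicate 1 (0.62, adjusted p = 0.288) or ZEB2 shRNA replicate 1 (0.72, adjusted p = 0.115), and PLD1 without WT replicate 2 (0.93, adjusted p = 0.214) or ZEB2 shRNA replicate 1 (0.97, adjusted p = 0.0704). EBF2 missed it without either WT library or ZEB2 shRNA replicate 2 (adjusted p = 0.0752 to 0.166). TGFBI and RETREG1 missed it whichever library was left out (adjusted p = 0.0608 to 0.241 and 0.0691 to 0.371).

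Among the 10 largest falls by the same rule were EGR1, TAF9B, MAP3K13, DKK1, FAR2P2, TAGLN, ARHGAP23, EDNRB and SPATA16. TAF9B, a subunit of the transcription factor TFIID and related complexes (chromosome X, 77385245 to 77395147, minus strand), fell from 48.4 and 42.6 to 13.2 and 12.2 CPM (log2 fold change -1.85 ± 0.12 SE, adjusted p = 2.1e-06). It was lower at day 0 (log2 fold change -1.46 ± 0.13 SE, adjusted p = 9.49e-05) and day 6 (log2 fold change -2.25 ± 0.14 SE, adjusted p = 1.73e-06) too. TAF9B lies 452 bases from PGK1, which is on the other strand, and PGK1 was higher at day 2 and not past the test at days 0 and 6. MAP3K13, a kinase upstream of JNK, stood at 10.7 and 12.05 CPM in WT and 4.88 and 2.85 CPM in ZEB2 shRNA libraries (log2 fold change -1.56 ± 0.23 SE, adjusted p = 0.00554), and it too was lower at day 0 (log2 fold change -1.62 ± 0.14 SE, adjusted p = 9.49e-05) and day 6 (log2 fold change -2.31 ± 0.20 SE, adjusted p = 1.58e-05). The pseudogene FAR2P2 was lower at days 0, 2 and 6 (log2 fold changes -1.68, -1.35 and -1.997), though reads of its parent gene's copies may be split between them. EDNRB, an endothelin receptor, stood at 19.1 and 20.1 CPM in WT and 8.77 and 7.86 CPM in ZEB2 shRNA libraries (log2 fold change -1.24 ± 0.16 SE, adjusted p = 0.00149). The GTPase regulator gene ARHGAP23 stood at 6.95 and 8.21 CPM in WT and 3.17 and 3.11 CPM in ZEB2 shRNA libraries, and the testis gene SPATA16 at 8.08 and 7.94 CPM and 3.43 and 3.61 CPM. EGR1, TAF9B, MAP3K13, TAGLN and EDNRB passed 5% FDR without any of the 4 libraries. ARHGAP23 and SPATA16 missed it whichever was left out (adjusted p = 0.0578 to 0.156 and 0.113 to 0.219). FAR2P2 missed it without WT replicate 1 (-1.25, adjusted p = 0.118) or ZEB2 shRNA replicate 1 (-1.24, adjusted p = 0.0723), and DKK1 without either WT library or ZEB2 shRNA replicate 2 (adjusted p = 0.0561 to 0.0646).

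TAGLN, the actin-binding protein transgelin of smooth muscle, stood on opposite sides of WT at days 0 and 2. It stood at 27.9 and 23.6 CPM in WT and 224 and 243 CPM in ZEB2 shRNA libraries at day 0 (log2 fold change 3.18 ± 0.28 SE, adjusted p = 9.51e-05), at 43.0 and 49.0 CPM in WT and 17.3 and 19.6 CPM in ZEB2 shRNA libraries at day 2 (log2 fold change -1.31 ± 0.12 SE, adjusted p = 3.25e-05) and at means of 392 and 389 CPM at day 6 (log2 fold change -0.01 ± 0.18 SE, adjusted p = 0.985). The interaction of days 0 and 2 was -4.48 ± 0.34 SE (adjusted p = 2.8e-06). MYL9, the smooth muscle myosin light chain, which was chosen after its values were seen, followed the same order: log2 fold change 1.53 ± 0.28 SE, adjusted p = 0.0105 at day 0 and log2 fold change -0.78 ± 0.15 SE, adjusted p = 0.0339 at day 2. Its day 2 difference missed 5% FDR whichever library was left out (adjusted p = 0.0591 to 0.417), in a fit of the 4 ZEB2 shRNA and WT libraries alone and with all RefSeq entries of a gene summed. The sum of 7 smooth muscle and fibroblast markers was 66.6 and 62.6 CPM in WT and 37.5 and 44.1 CPM in ZEB2 shRNA libraries at day 2. TAGLN made up most of that sum in WT, and of the 4 members tested it alone passed 5% FDR. ACTA2 was not among them, and CNN1 stood at a log2 fold change of 0.47 (adjusted p = 0.613).

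Genes of glycolysis and the hypoxia response leaned up at day 2. Glycolysis turns glucose to lactate through a chain of cytosolic enzymes, and many of its genes are induced by hypoxia-inducible factors. Of 24 such genes tested, 4 rose at 5% FDR and none fell, against 0.206% of all genes that rose, and 17 had both ZEB2 shRNA libraries above both WT libraries, against 19.2% of all genes. The median log2 fold change was 0.22, with 21 positive values. LDHA, which makes lactate, stood at 209 and 216 CPM in WT and 456 and 406 CPM in ZEB2 shRNA libraries (log2 fold change 1.02 ± 0.10 SE, adjusted p = 0.000115). PGK1, phosphoglycerate kinase, stood at 395 and 394 CPM in WT and 724 and 748 CPM in ZEB2 shRNA libraries (log2 fold change 0.90 ± 0.08 SE, adjusted p = 2.61e-05). The other 2 were the enolase gene ENO1 at 874 and 924 CPM in WT and 1098 and 1217 CPM in ZEB2 shRNA libraries (log2 fold change 0.37 ± 0.07 SE, adjusted p = 0.0368) and BNIP3, a mitophagy receptor induced by hypoxia, at 219 and 205 CPM in WT and 290.5 and 276 CPM in ZEB2 shRNA libraries (log2 fold change 0.42 ± 0.07 SE, adjusted p = 0.0196). The count of 4 came down to 2 (LDHA and PGK1) without WT replicate 1 or without WT replicate 2, and the median stayed between 0.17 and 0.28 without any 1 of the 4 libraries.

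The members that did not pass ranged from ADM, the vasodilator adrenomedullin (-0.24 on the log2 scale, adjusted p = 0.839), to CA9, carbonic anhydrase IX (0.79, adjusted p = 0.867), which was at 0.137 and 0.199 CPM in WT and 0.143 and 0.404 CPM in ZEB2 shRNA libraries. VEGFA, the hypoxia-induced vascular growth factor, stood at 46.5 and 52.2 CPM in WT and 55.6 and 58.3 CPM in ZEB2 shRNA libraries (log2 fold change 0.21 ± 0.10 SE, adjusted p = 0.582), ALDOA, an aldolase, at 294 and 316 CPM in WT and 374 and 440.1 CPM in ZEB2 shRNA libraries (log2 fold change 0.42 ± 0.10 SE, adjusted p = 0.103), and the glucose transporter SLC2A3 at 667 and 688 CPM in WT and 689.9 and 686 CPM in ZEB2 shRNA libraries (log2 fold change 0.02 ± 0.06 SE, adjusted p = 0.954). Outside the list, and chosen after their values were seen, the glycolytic TPI1 (log2 fold change 0.43 ± 0.07 SE, adjusted p = 0.0159), the collagen prolyl hydroxylase P4HA1 (log2 fold change 0.58 ± 0.10 SE, adjusted p = 0.0187) and the mTOR inhibitor DDIT4 (log2 fold change 0.76 ± 0.14 SE, adjusted p = 0.0205) rose as well. TPI1 missed 5% FDR without WT replicate 1, WT replicate 2 or ZEB2 shRNA replicate 2 (adjusted p up to 0.203), P4HA1 without WT replicate 2 or ZEB2 shRNA replicate 1 (up to 0.372) and DDIT4 without WT replicate 1 or ZEB2 shRNA replicate 2 (up to 0.263). The medians over the list were 0.06 at day 0 and 0.09 at day 6, and LDHA and PGK1 were at -0.08 and -0.08 at day 0 (adjusted p = 0.765 and 0.782). Their interactions of days 0 and 2 were 1.11 (adjusted p = 0.00202) and 1.00 (adjusted p = 0.00282). Against the same WT libraries at day 2, LDHA and PGK1 were higher in NKX2-5 shRNA cells (1.09, adjusted p = 9.76e-06, and 1.25, adjusted p = 3.62e-07) and stood at 0.07 and 0.18 in ZNF503 shRNA cells (adjusted p = 0.635 and 0.0999).

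Immediate early genes, which respond within minutes to growth factors, serum or handling, leaned down at day 2. Of 16 tested, EGR1 fell at 5% FDR and none rose, 14 values were negative, and 10 had both ZEB2 shRNA libraries below both WT libraries, against 19.5% of all genes (median -0.35). EGR1, a zinc finger transcription factor, stood at 6.30 and 8.34 CPM in WT and 1.71 and 2.27 CPM in ZEB2 shRNA libraries (log2 fold change -1.86 ± 0.25 SE, adjusted p = 0.00229). The AP-1 subunit gene FOSB, at 1.20 and 1.59 CPM in WT and 0.628 and 0.505 CPM in ZEB2 shRNA libraries, and the matricellular CCN1, at 5.20 and 4.70 CPM in WT and 2.66 and 2.58 CPM in ZEB2 shRNA libraries, did not pass (log2 fold change -1.27 ± 0.40 SE, adjusted p = 0.278, and log2 fold change -0.93 ± 0.26 SE, adjusted p = 0.191), nor did MYC at 12.3 and 12.6 CPM in WT and 7.74 and 9.07 CPM in ZEB2 shRNA libraries (log2 fold change -0.56 ± 0.17 SE, adjusted p = 0.265) or FOS (log2 fold change -0.30 ± 0.14 SE, adjusted p = 0.542). At day 0 the list leaned the other way, with a median of 0.40 and 5 of 15 members higher at 5% FDR, where 2.47% of all genes were higher, among them CCN2 (log2 fold change 2.07 ± 0.22 SE, adjusted p = 0.000413), CCN1 (log2 fold change 1.62 ± 0.18 SE, adjusted p = 0.000421) and JUN (log2 fold change 1.28 ± 0.15 SE, adjusted p = 0.000687), and at day 6 the median was -0.19. EGR1 stood at 0.487 and 1.13 CPM at day 0, and its interaction of days 0 and 2 was -3.04 ± 0.42 SE (adjusted p = 0.000848). The part of handling or harvest in these values was not tested.

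**Figure D4:**
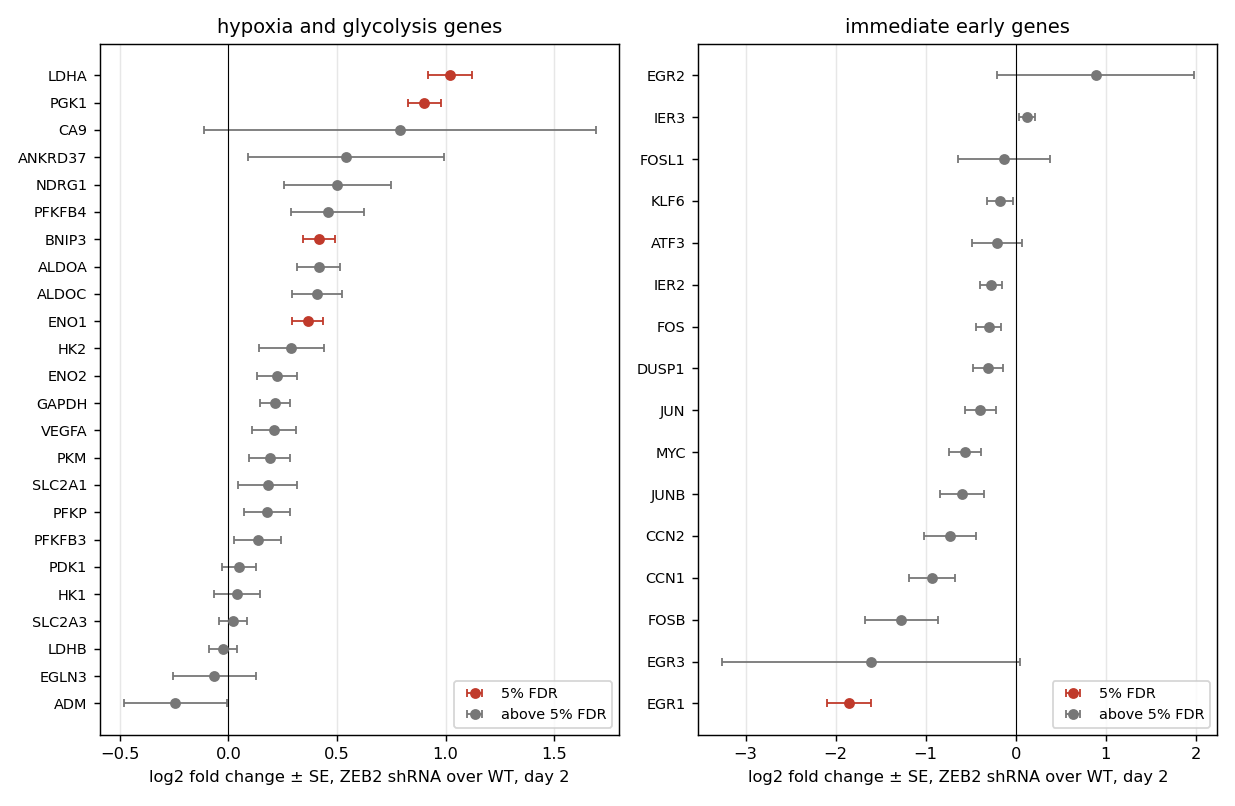
Log2 fold change ± SE of ZEB2 shRNA over WT cells at day 2 for 24 genes of hypoxia and glycolysis (left) and 16 immediate early genes (right), red at 5% FDR and grey above it. On the left 21 of 24 points lie above 0, with LDHA and PGK1 at the top, and on the right 14 of 16 lie below 0, with EGR1 at the bottom.

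Mesendoderm genes were mostly near their WT levels. Of 25 mesendoderm genes tested, DKK1 fell at 5% FDR and none rose, 16 values were negative, and the median log2 fold change was -0.06. In 10 of the 25 both ZEB2 shRNA libraries lay below both WT libraries, against 19.5% of all genes. In 6 of them both lay above, against 19.2% of all genes. EOMES, a T-box factor of mesendoderm, stood at 599 and 655 CPM in WT and 613 and 632 CPM in ZEB2 shRNA libraries (log2 fold change -0.01 ± 0.11 SE, adjusted p = 0.990), and CER1, a secreted NODAL and BMP antagonist, at 2015 and 2073 CPM in WT and 2093 and 2104 CPM in ZEB2 shRNA libraries (log2 fold change 0.04 ± 0.08 SE, adjusted p = 0.938). TBXT, the brachyury gene, was at 54.6 and 57.2 CPM in WT and 43.4 and 46.6 CPM in ZEB2 shRNA libraries (log2 fold change -0.31 ± 0.16 SE, adjusted p = 0.600), MIXL1 at 102 and 105 CPM in WT and 77.4 and 102 CPM in ZEB2 shRNA libraries (log2 fold change -0.21 ± 0.16 SE, adjusted p = 0.779) and MESP1, a factor of early cardiac mesoderm, at 6.40 and 6.82 CPM in WT and 7.68 and 12.1 CPM in ZEB2 shRNA libraries (log2 fold change 0.59 ± 0.24 SE, adjusted p = 0.463). DKK1, a secreted WNT inhibitor, stood at 26.8 and 27.1 CPM in WT and 11.2 and 9.55 CPM in ZEB2 shRNA libraries (log2 fold change -1.38 ± 0.22 SE, adjusted p = 0.0106).

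The pathways that drive this stage each held at most 2 genes past 5% FDR, where 0.490% of all genes passed. In the WNT pathway (30 tested, median -0.05), the ligand WNT5A rose from 53.5 and 58.2 to 78.5 and 89.1 CPM (log2 fold change 0.59 ± 0.10 SE, adjusted p = 0.0181) and the antagonist DKK1 fell, while the ligand WNT3 at 63.2 and 69.9 CPM in WT and 46.5 and 57.1 CPM in ZEB2 shRNA libraries (log2 fold change -0.36 ± 0.14 SE, adjusted p = 0.463), the feedback gene AXIN2 (log2 fold change -0.05 ± 0.12 SE, adjusted p = 0.944) and the WNT target SP5 at 80.5 and 83.9 CPM in WT and 54.5 and 66.6 CPM in ZEB2 shRNA libraries (log2 fold change -0.44 ± 0.13 SE, adjusted p = 0.244) did not pass. WNT5A missed 5% FDR without WT replicate 1, WT replicate 2 or ZEB2 shRNA replicate 2 (adjusted p up to 0.209). In the BMP pathway (22 tested, median 0.04), the secreted antagonist CHRD fell from 39.7 and 44.2 to 19.6 and 17.6 CPM (log2 fold change -1.17 ± 0.16 SE, adjusted p = 0.00265). The extracellular modulator BMPER, at 1.51 and 2.12 CPM in WT and 4.03 and 4.72 CPM in ZEB2 shRNA libraries (log2 fold change 1.31 ± 0.28 SE, adjusted p = 0.0643), and the target MSX2 (log2 fold change 0.59 ± 0.19 SE, adjusted p = 0.294) did not pass. CHRD came on between day 0 and day 2 in WT, from 0.449 to 42.0 CPM. No gene passed 5% FDR among 21 of the NODAL and activin pathway, 22 of the FGF pathway and 15 of the NOTCH pathway (medians -0.02, -0.00485 and 0.02, with 2, 2 and 1 at an unadjusted p under 0.05 by edgeR). That p was reached by 6 of the 30 WNT and 5 of the 22 BMP pathway genes, against 8.98% of all genes. NODAL itself stood at 154 and 156 CPM in WT and 152 and 143 CPM in ZEB2 shRNA libraries (log2 fold change -0.08 ± 0.10 SE, adjusted p = 0.889) and its co-receptor CRIPTO, also named TDGF1, at 822 and 811 CPM in WT and 844 and 788 CPM in ZEB2 shRNA libraries.

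ZEB2 is known to act in the EMT, and of the EMT transcription factors, epithelial genes and mesenchymal genes listed, COL5A2 alone passed 5% FDR. TAGLN, MYL9 and TGFBI, which passed 5% FDR as given above, were not on these lists. Of 9 EMT transcription factors none did: ZEB1, the paralog of ZEB2, stood at 1.64 and 2.18 CPM in WT and 1.26 and 1.34 CPM in ZEB2 shRNA libraries (log2 fold change -0.53 ± 0.31 SE, adjusted p = 0.671), SNAI1 at 14.8 and 13.9 CPM in WT and 12.6 and 14.6 CPM in ZEB2 shRNA libraries (log2 fold change -0.08 ± 0.17 SE, adjusted p = 0.939) and SNAI2 at 5.07 and 4.97 CPM in WT and 5.97 and 7.63 CPM in ZEB2 shRNA libraries (log2 fold change 0.44 ± 0.23 SE, adjusted p = 0.615). Of 28 epithelial genes none passed 5% FDR (4 at an unadjusted p under 0.05 by edgeR, against 8.98% of all genes, median 0.05). CDH1, the E-cadherin gene, stood at 243 and 246 CPM in WT and 255 and 246 CPM in ZEB2 shRNA libraries (log2 fold change 0.04 ± 0.08 SE, adjusted p = 0.938). GRHL2, an epithelial transcription factor, was at 60.0 and 56.5 CPM in WT and 71.4 and 68.5 CPM in ZEB2 shRNA libraries (log2 fold change 0.26 ± 0.10 SE, adjusted p = 0.419) and the small GTPase gene RAB25 at 39.9 and 38.8 CPM in WT and 49.7 and 48.4 CPM in ZEB2 shRNA libraries (log2 fold change 0.32 ± 0.10 SE, adjusted p = 0.271). At day 6, 12 of the 28 were higher and 1 lower at 5% FDR, with CDH1 among the higher (log2 fold change 0.98 ± 0.16 SE, adjusted p = 0.00189), when 5.67% of all genes were higher. Of 16 mesenchymal genes tested at day 2, the fibrillar collagen COL5A2 fell from 188 and 181 to 112 and 134 CPM (log2 fold change -0.59 ± 0.10 SE, adjusted p = 0.0159). An unadjusted p under 0.05 by edgeR was reached by 7 of the 16, against 8.98% of all genes. Over all 16, 7 values were positive and 9 negative (median -0.07). COL5A2 missed 5% FDR without WT replicate 1, WT replicate 2 or ZEB2 shRNA replicate 1 (adjusted p up to 0.172) and with all RefSeq entries summed, and no mesenchymal gene was then lower at 5% FDR. N-cadherin, CDH2, stood at 505 and 514 CPM in WT and 477 and 439 CPM in ZEB2 shRNA libraries (log2 fold change -0.15 ± 0.09 SE, adjusted p = 0.671), fibronectin, FN1, at 289 and 313 CPM in WT and 341 and 374 CPM in ZEB2 shRNA libraries (log2 fold change 0.25 ± 0.08 SE, adjusted p = 0.260) and the matrix protein tenascin, TNC, at 28.1 and 32.7 CPM in WT and 19.4 and 17.9 CPM in ZEB2 shRNA libraries (log2 fold change -0.70 ± 0.16 SE, adjusted p = 0.0724).

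Genes of later and other fates were also read. Of 14 cardiac mesoderm and progenitor genes tested, none passed 5% FDR (6 at an unadjusted p under 0.05 by edgeR, against 8.98% of all genes, 9 positive, median 0.25), with GATA4 at 21.7 and 24.9 CPM in WT and 16.3 and 18.2 CPM in ZEB2 shRNA libraries (log2 fold change -0.43 ± 0.16 SE, adjusted p = 0.397) and TBX20 at 4.86 and 3.71 CPM in WT and 6.94 and 6.64 CPM in ZEB2 shRNA libraries (log2 fold change 0.64 ± 0.24 SE, adjusted p = 0.397). In 7 of the 14 both ZEB2 shRNA libraries lay above both WT libraries and in 2 below, against 19.2% and 19.5% of all genes. Of 12 endoderm genes none passed (4 at an unadjusted p under 0.05 by edgeR, against 8.98% of all genes), with the pioneer factor FOXA2 at 57.1 and 63.1 CPM in WT and 36.8 and 39.7 CPM in ZEB2 shRNA libraries (log2 fold change -0.65 ± 0.14 SE, adjusted p = 0.0582) and the chemokine receptor CXCR4 at 52.7 and 60.4 CPM in WT and 74.4 and 76.1 CPM in ZEB2 shRNA libraries (log2 fold change 0.42 ± 0.10 SE, adjusted p = 0.107). None passed among the listed 22 pluripotency, 29 cell cycle, 16 p53 target, 18 cholesterol synthesis, 12 germline and 15 stress and unfolded protein response genes, with medians of -0.03, -0.06, 0.02, 0.00164, -0.02 and -0.08. The germline list did not hold RBM46, which rose at 5% FDR, or the testis gene SPATA16, which fell (both above). At an unadjusted p under 0.05 by edgeR these 6 lists held 3, 6, 0, 0, 1 and 1 genes, against 8.98% of all genes. Of 57 clustered protocadherins, cell adhesion genes of chromosome 5, none passed 5% FDR, 15 had an unadjusted p under 0.05 and 44 were negative (median -0.08). That median moved to 0.000502 without ZEB2 shRNA replicate 1. Both ZEB2 shRNA libraries lay below both WT libraries in 23 of the 57 protocadherins and 11 of the 29 cell cycle genes. They lay above in 6 and 3. Of all genes, 19.5% lay below and 19.2% above.

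Several genes at 5% FDR lay together on chromosome 20. TPX2, TM9SF4, POFUT1, KIF3B and ASXL1 all lie between HM13 and ASXL1 on chromosome 20 (30102231 to 31027122, GRCh37), next to the centromere on the long arm. This stretch was chosen after its values were seen, so its counts are a description. All 11 genes there with a mean of at least 5 CPM had positive log2 fold changes in the ZEB2 shRNA line (median 0.44, 1.36-fold, range 0.26 to 0.77), and 5 passed 5% FDR, against 0.206% of all genes that were higher. ASXL1, a Polycomb-associated chromatin regulator, stood at 50.3 and 52.7 CPM in WT and 87.7 and 86.8 CPM in ZEB2 shRNA libraries (log2 fold change 0.76 ± 0.10 SE, adjusted p = 0.00149). TPX2, a mitotic spindle protein, stood at 195 and 183 CPM in WT and 261 and 252 CPM in ZEB2 shRNA libraries (log2 fold change 0.44 ± 0.08 SE, adjusted p = 0.0188), and the Notch O-fucosyltransferase gene POFUT1 at 35.4 and 34.2 CPM in WT and 51.7 and 52.4 CPM in ZEB2 shRNA libraries (log2 fold change 0.58 ± 0.10 SE, adjusted p = 0.0195). The kinesin gene KIF3B was at 68.0 and 65.8 CPM in WT and 92.3 and 91.4 CPM in ZEB2 shRNA libraries, and the membrane protein gene TM9SF4 at 56.7 and 58.0 CPM and 78.4 and 86.1 CPM. The others in the stretch, HM13, ID1, BCL2L1, PDRG1, TSPY26P and PLAGL2, had positive values that did not pass, among them BCL2L1, an inhibitor of apoptosis (0.37 ± 0.13 SE, adjusted p = 0.390). Without 1 library, between 1 and 2 of the 11 passed 5% FDR (2 without ZEB2 shRNA replicate 1, and 1 without ZEB2 shRNA replicate 2, WT replicate 1 or WT replicate 2), and the median was between 0.45 and 0.54.

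In the day 0 libraries the 11 genes were again higher, their median being 0.73 and 9 at 5% FDR (against 2.47% of all genes), and at day 6, with 0.52 and 6 at 5% FDR (against 5.67%). Outside the stretch, the 10 expressed genes before HM13 had a day 2 median of 0.00674 and the 10 after ASXL1 one of -0.000680, none at 5% FDR. Those before HM13 start at 24943561 to 29612048, and all but FRG1BP start at or before 26148453. Most of them are therefore not close to HM13, which starts at 30102231, and cannot show where the stretch begins. Against the mean of the other 2 shRNA lines, the 11 genes had a median of 0.65 with 9 higher at 5% FDR, against 11.3% of all genes, and the 10 genes on each side had medians of 0.13 and 0.32. Against the same WT libraries, their medians were -0.17 in NKX2-5 and -0.24 in ZNF503 shRNA cells. Over the genome in windows of 15 neighbouring genes (11505 windows of 11841 genes with at least 5 CPM), the window from NANP to ASXL1 had the highest median, 0.38, all 11 windows with a median above 0.25 lay on chromosome 20, and the highest elsewhere was 0.22. The lowest median, -0.33, was at the protocadherin alpha genes of chromosome 5. On chromosome 21, the window from SLX9 to DIP2A had a median of -0.25. A gain of the first part of the long arm of chromosome 20 is known as a recurrent change in cultured human ESCs. DNA copy number was not measured, and its part in these values was not tested.

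**Figure D5:**
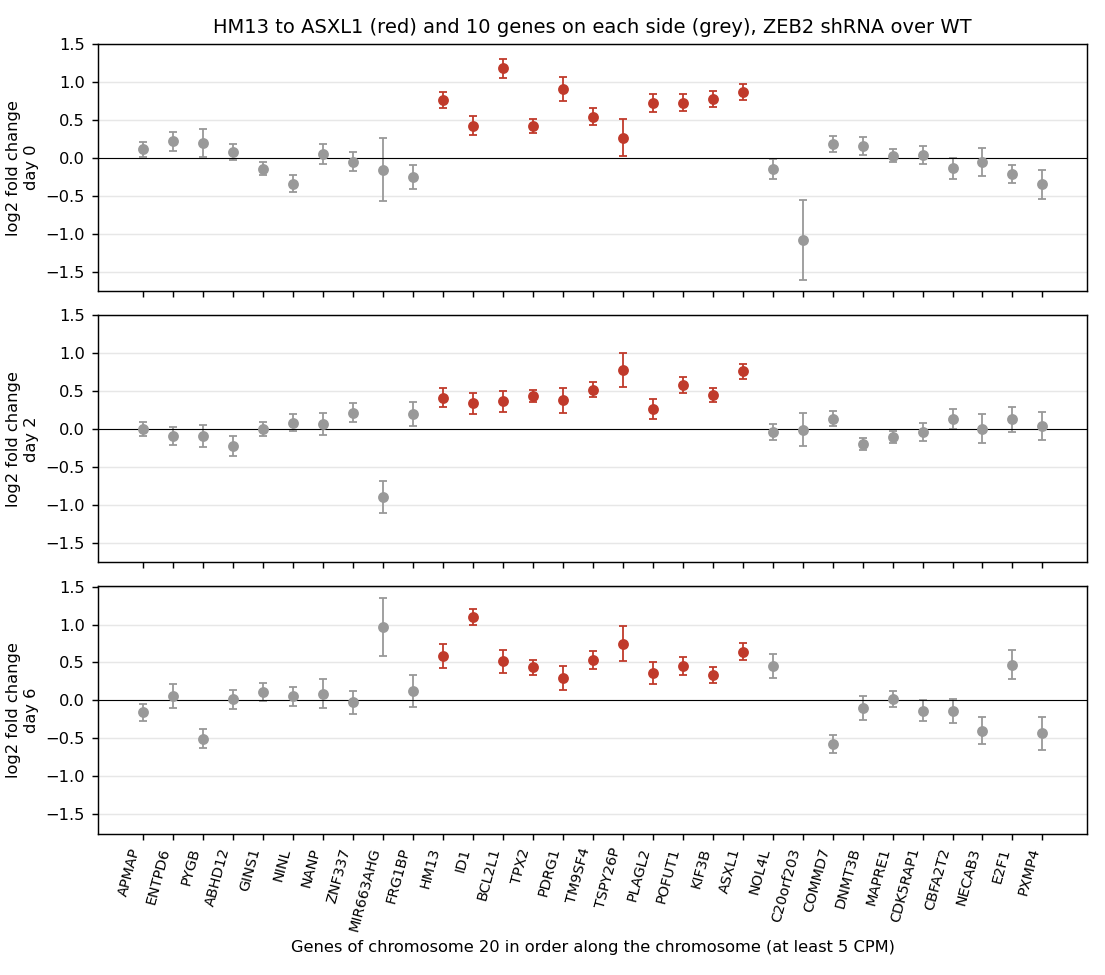
Log2 fold change ± SE of ZEB2 shRNA over WT cells at day 0 (top), day 2 (middle) and day 6 (bottom) for the 11 genes from HM13 to ASXL1 (red) and the 10 nearest genes with at least 5 CPM on each side (grey), in their order along chromosome 20. All 11 red points lie above 0 at each day, at day 2 between 0.26 and 0.77, while the grey points have day 2 medians of 0.00674 on the left and -0.00068 on the right.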

How the data were processed

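RNA from H1 cells was sequenced as stranded total RNA in paired-end reads. The authors aligned the reads with TopHat2 2.0.14 and Bowtie2 2.2.1.0 to hg19 (GRCh37) and counted them per RefSeq region with RSeQC, and the deposited table holds these raw read counts of each library, not normalized. Tool versions are those in the submitters' processing notes, and whether strand was used in counting is not given in the sources used here. Of 41627 RefSeq accessions, 40285 (96.8%) were matched to a symbol, which held 97.1% of the counts, and each symbol was represented by its accession with the largest total (7913 symbols had several). Rows with no accession (1077), which hold no value for the libraries used, and 4 day 10 libraries, whose values did not follow the gene order of the other day 10 libraries (Spearman correlation 0.113 to 0.122 across genes), were left out.

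Counts were fitted with edgeR 4.0.16 in R 4.3.3 (TMM factors, filterByExpr, quasi-likelihood F-test, two-sided, Benjamini-Hochberg adjustment over all genes tested). All 8 day 2 libraries shared 1 fit, and ZEB2 was compared with WT in it. Day 0 and day 6 were fitted separately, and days 0 and 2 together for the interaction. A gene was called at 4-fold and 10% FDR, the rule of the study for day 2, and 5% FDR was used for smaller differences. The fits were tested on simulated data. The alternatives were other scaling, no filter, other tests (edgeR's exact test and DESeq2 1.42.0), other thresholds, a replicate block and leaving out each library. The labels call the libraries biological replicates, and nothing says whether they came from separate cultures, so p-values measure the spread between these libraries. With 14630405 to 87850810 counts per library, low genes are limited by counting.

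The genes named were ZEB2, all called genes, the 10 largest rises and 10 largest falls among the other genes at 5% FDR with at least 1 CPM in the higher group and no overlap, and members of gene lists. 1 of the falls is not reported here. Members, lists and tests were chosen with earlier results of these data known. Names, and promoter sequences (GRCh38.p14), came from RefSeq, and gene positions from GENCODE on GRCh37.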

Additional observations from a re-analysis of the deposited data

Results flagged for a closer look

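The difference between ZEB2 shRNA and WT cells changed from day 0 to day 2 in 6 of the 22 called genes, by the interaction term of edgeR's quasi-likelihood test at 5% FDR. On the log2 scale the change was -9.46 for SCG2 and -6.54 for ZNF560, both of which had 0 counts in the ZEB2 shRNA libraries at day 2, so that these fitted values depend on the prior count and are no bounds. The change was -2.85 for TEK, -2.57 for CCDC68, -2.45 for SYT4 and 1.62 for HPGD. In CCDC68 the day 2 call itself was lost whichever library was left out.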

How the results depend on the processing

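The 22 called genes kept their direction under all 12 alternatives. The call was kept under all of them by 10 genes, and 9 of the 62 others at 5% FDR stayed past it. Without a filter on low counts, 41 genes were called and 301 passed 5% FDR, ZEB2 itself passed at -0.62 (adjusted p = 0.0341), and 17 called genes were found again at day 6. With edgeR's exact test 50 were called and 205 passed (110 higher, 95 lower), with the DESeq2 Wald test 24 and 181 (98 higher, 83 lower), and at 2-fold and 10% FDR 51 were called. DESeq2 gave no adjusted p for 961 genes. Over the other alternatives ZEB2 had adjusted p from 0.0670 to 0.662. The cause was not tested for any of these.

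With the replicate number as a block, 30 genes were called (5 higher, 25 lower) and 186 passed 5% FDR (95 higher, 91 lower). The numbers did not pair the samples, with a correlation of the deviations of 0.0204 between WT and ZEB2 and of 0.0183 to 0.176 over all pairs of lines at day 2. The split at 5% FDR was 181 higher and 120 lower without a filter.

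With 1 library left out, the counts ranged from 13 to 21 (called), 27 to 42 (5% FDR), 54 to 84 (interaction), 134 to 209 (other shRNA lines), 7 to 9 (also at day 0) and 8 to 12 (also at day 6). A group left with 1 library was assumed to vary like the others. The 2 libraries per line and 14630405 counts in the smallest limit what could be called among low genes.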
